A study of Mus musculus with 13 samples.

Results

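The genes of the receptor tyrosine kinase Ret, of its coreceptors and of the GDNF family ligands were compared between sympathetic ganglia with and without a MYCN transgene. The members were the 9 genes Ret, Gfra1, Gfra2, Gfra3, Gfra4, Gdnf, Nrtn, Artn and Pspn, found by gene symbol in the array annotation. All 9 were measured, by 12 probes, among 21893 genes measured by 30626 probes with a symbol. Superior cervical and coeliac ganglia were taken from TH-MYCN+/+ mice (6 samples) and from wild-type littermates of the same age (7 samples) at 2 weeks. TH-MYCN+/+ animals carry the transgene on both alleles, in which a tyrosine hydroxylase promoter drives human MYCN in catecholaminergic cells, a mouse model of neuroblastoma. Each sample was total RNA of whole ganglia labelled with Cy3 on its own Agilent array, and the labels do not say whether an array holds 1 animal or a pool. Any p-value here reflects sample-to-sample spread alone, and some of that spread may be technical.

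GDNF family ligands are secreted dimers that bind a coreceptor of the GFR alpha family, held in the membrane by a lipid anchor, and the complex brings Ret molecules together so that the kinase becomes active. Each ligand has a preferred coreceptor: Gdnf encodes the partner of Gfra1, Nrtn (neurturin) that of Gfra2, Artn (artemin) that of Gfra3 and Pspn (persephin) that of Gfra4. In developing sympathetic ganglia, artemin acting through Gfra3 and Ret guides neuroblasts and axons along blood vessels, and Ret with Gfra2 is known from cholinergic sympathetic neurons.

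Values are log2 intensities after quantile normalization, and a gene was called at a Benjamini-Hochberg adjusted p under 0.05 by limma. An array's background was the 95th percentile of its 96 ERCC control probes, and 56.3% to 63.0% of probes lay above it. As markers of the labelled tissue, the sympathetic gene Th (tyrosine hydroxylase) and the glial gene Sox10 were above background on every array. Markers of neighbouring tissue stood apart from the rest of their genotype on 5 arrays. The mean of 7 skeletal muscle genes reached 11.28 in TH-MYCN+/+ replicate 6, the mean of 8 adrenal genes reached 6.83 in wild-type replicate 1, and the mean of 4 lymphocyte genes reached 9.24 in wild-type replicate 3 and 6.57 in TH-MYCN+/+ replicate 5. The mean of 6 adipocyte genes reached 10.02 in TH-MYCN+/+ replicate 2, against 6.98 to 8.73 on the other arrays of that genotype and at most 9.57 in wild type. The labels were not checked against the transgene, since a probe for the mouse gene may not report human MYCN.

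Ret, 2 coreceptors and 3 ligand genes were called lower in TH-MYCN+/+ ganglia. These 6 of the 9 members were Ret, Gfra1, Gfra2, Gdnf, Nrtn and Artn, no member was called higher, and Gfra3, Gfra4 and Pspn were not called. Of all genes 34.3% were called lower and 18.9% higher. For Ret, Gfra2, Nrtn and Artn the lowest wild-type array lay above the highest TH-MYCN+/+ array, as it did for 23.1% of all genes. The median log2 fold change of all genes was -0.15. With arrays scaled to E1A spike-in probes in place of quantile normalization that median was 0.30, Ret and Gdnf were the 2 members called lower, and Gfra3 was called higher, against 7.21% of all genes called lower and 25.9% higher. In the values as deposited 5 members were called lower and none higher, against 12.5% and 25.2% of all genes. In whole ganglia, fewer cells of a type and less RNA per cell cannot be told apart.

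**Figure D1:**
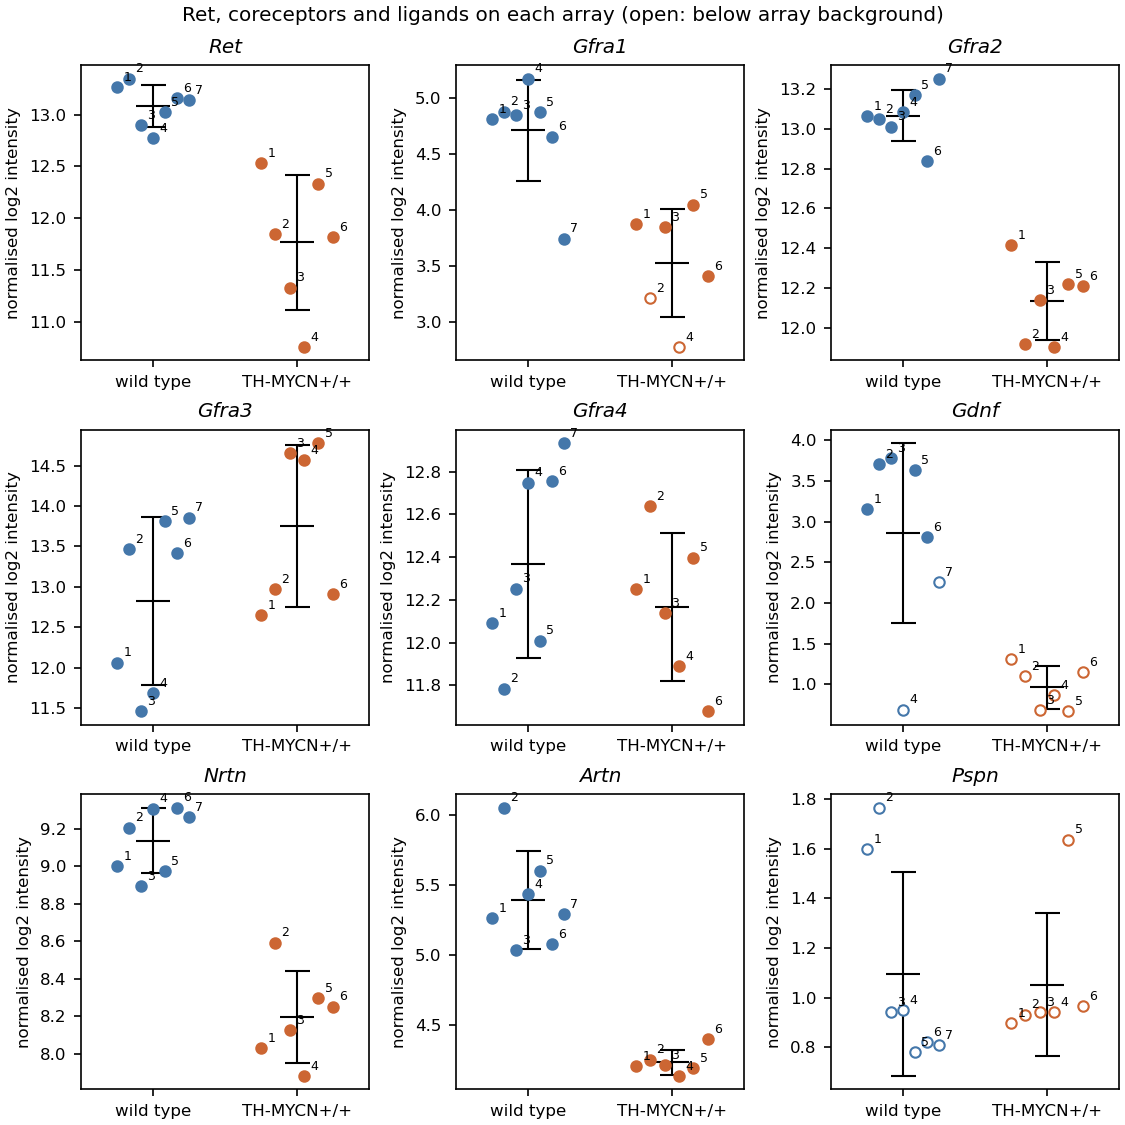
Normalised log2 intensity of the 9 members on each of the 13 arrays, with wild type in blue and TH-MYCN+/+ in orange, the replicate number beside each point, open points below the array background, and bars for the mean and SD. Ret, Gfra2, Nrtn and Artn do not overlap between the genotypes, Gfra3 spreads over more than 2 log2 units within each genotype, and Pspn lies below background on every array.

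Ret, the kinase that all of these ligands share, fell 2.49-fold. Its lowest, median and highest level was 10.76, 11.83 and 12.53 in TH-MYCN+/+ ganglia, and 12.77, 13.14 and 13.35 in wild-type ganglia. Every TH-MYCN+/+ array lay below every wild-type array. The log2 fold change was -1.32 ± 0.24 (SE), with a 95% interval of -1.85 to -0.79 and an adjusted p of 4.59e-04 by limma. The TH-MYCN+/+ arrays were spread more widely than the wild-type arrays, with an SD of 0.65 against 0.20. Within TH-MYCN+/+ the level was lowest in replicate 4 (10.76), followed by replicate 3 (11.33), and highest in replicate 1 (12.53). The mean of 9 sympathetic neuron markers was also lowest in replicate 4, at 14.13 within a range of 14.13 to 14.90, and stood at 15.57 to 16.01 in wild type. Replicate 4 was lowest of its genotype for fibroblast (12.05), cholinergic neuron (6.24), sensory neuron (5.87) and skeletal muscle markers (4.10) too. It was highest for proliferating cell markers (10.31). The mean of glial markers was 8.36 in replicate 4 and 8.34 in replicate 2. Other lists were lowest elsewhere. Replicate 3 was lowest for smooth muscle (6.70), endothelial (7.03), adipocyte (6.98) and lymphocyte markers (3.65). Macrophage markers were lowest in replicate 2 (7.94) and adrenal markers in replicate 6 (2.98). Sympathetic neuron markers were highest in replicate 5 (14.90) and not in replicate 1. The part of these cell types in the Ret difference was not tested. Ret stayed lower with each scaling, at -0.85 with spike-in scaling (adjusted p = 0.0348) and -1.01 in the values as deposited (adjusted p = 0.0115).

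The genes with the array profile nearest to that of Ret were A830018L16Rik, Tmem229a and Cblc. Likeness was the root mean square difference between profiles over 13 arrays, each centred on its own mean, among 14242 other genes above background on all arrays. The differences were 0.13 for A830018L16Rik, 0.14 for Tmem229a and 0.16 for Cblc on the log2 scale. Cblc, of the Cbl family of ubiquitin ligases that act on receptor tyrosine kinases, stood at 4.10 in TH-MYCN+/+ replicate 4, at 5.25 to 5.83 on the other TH-MYCN+/+ arrays and at 6.36 to 6.99 in wild type. The array lowest for Ret was lowest for Cblc too. Genes picked for likeness to the Ret profile tend to share its low arrays by that choice, so this is no evidence of a link. Tmem229a, a membrane protein gene, was likewise lowest in TH-MYCN+/+ replicate 4 (7.61) and highest of that genotype in replicate 1 (9.22).

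Gfra2, the neurturin coreceptor, fell 1.91-fold and had the tightest values of the 9 members. Its TH-MYCN+/+ arrays had a lowest, median and highest level of 11.90, 12.17 and 12.42, and its wild-type arrays of 12.84, 13.06 and 13.25. The genotypes did not overlap. The log2 fold change was -0.93 ± 0.09 (SE, adjusted p = 3.80e-06), and -0.46 with spike-in scaling, where it was not called (adjusted p = 0.182). Gfra1, the GDNF coreceptor, fell 2.26-fold from a level near background. In TH-MYCN+/+ the lowest, median and highest level was 2.78, 3.63 and 4.05, where 4 of 6 arrays were above background, and 3.74, 4.85 and 5.17 in wild type, where all 7 were. The genotypes overlapped through wild-type replicate 7, the lowest of its group. The log2 fold change of Gfra1 was -1.18 ± 0.25 (SE, adjusted p = 0.00112), and it was not called with spike-in scaling (-0.44, adjusted p = 0.277) or as deposited (-0.60, adjusted p = 0.0877).

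Gfra4, the persephin coreceptor, was measured by 4 probes that did not move alike. The brightest probe, A_55_P2039196, averaged 12.17 in TH-MYCN+/+ (SD 0.35, n = 6) and 12.37 in wild type (SD 0.44, n = 7). Its genotypes overlapped, at a difference of -0.20 ± 0.21 (log2, SE) with an adjusted p of 0.458. Probe A_55_P2039190 fell by 0.69 on the log2 scale (adjusted p = 7.13e-05 over all named probes, of which 32.6% were called lower), with 10.03 to 10.38 in TH-MYCN+/+ and 10.55 to 11.22 in wild type. This probe is annotated to a different transcript record from the other Gfra4 probes, which share one. Probe A_55_P1984119 fell by 0.80 (adjusted p = 0.0208), and wild-type replicates 1 (7.72) and 2 (7.61) stood above the other wild-type arrays (6.13 to 6.72). Probe A_55_P1984118 gave -0.14 (adjusted p = 0.559). Neither fall was called with spike-in scaling (adjusted p = 0.524 and 0.721), where the log2 fold changes were -0.21 and -0.14. All 4 probes were thus negative after quantile normalization and 2 were called, while with spike-in scaling A_55_P1984118 turned to 0.45 (adjusted p = 0.195) and the brightest probe to 0.26 (adjusted p = 0.462).

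Gfra3, the artemin coreceptor, had the largest SD pooled over the 2 genotypes among the 9 members, and was the only one with a positive log2 fold change. Levels ran from 12.65 through a median of 13.77 to 14.78 in TH-MYCN+/+, and in wild type the lowest, median and highest were 11.46, 13.42 and 13.86. The genotypes overlapped. The log2 fold change was 0.93 ± 0.53 (SE), with a 95% interval of -0.23 to 2.09 and an adjusted p of 0.167. It stayed positive with each scaling and was called with spike-in scaling (1.47, adjusted p = 0.0381). Without TH-MYCN+/+ replicates 5 and 6 and wild-type replicates 1 and 3 it was 0.46 (adjusted p = 0.560), and without TH-MYCN+/+ replicate 2 as well it was 0.71 (adjusted p = 0.424). The values fell into an upper and a lower set in each genotype. TH-MYCN+/+ replicates 3, 4 and 5 held 14.57 to 14.78, against 12.65 to 12.97 in replicates 1, 2 and 6. Wild-type replicates 2, 5, 6 and 7 held 13.42 to 13.86, against 11.46 to 12.06 in replicates 1, 3 and 4. The SD within a genotype was 1.03, where the median of 14243 genes above background on all arrays was 0.245 and 0.681% of these genes had a larger one.

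Some genes on the same chromosome split the arrays much as Gfra3 did. This comparison was chosen after the values were seen. By the root mean square difference of deviations from the genotype mean, the 4 genes nearest to Gfra3 were Pcdhb8, Cdc23, Slc25a46 and A830052D11Rik, all on chromosome 18, which holds 2.55% of the genes compared. No other gene of the nearest 20 lay there. Cdc23, a subunit of the anaphase-promoting complex, is next to Gfra3 in the RefSeq order of genes above background on all arrays. It stood at 7.04 to 7.37 in TH-MYCN+/+ replicates 3, 4 and 5 and at 5.96 to 6.36 in replicates 1, 2 and 6. In wild type it stood at 6.92 to 6.96 in replicates 5, 6 and 7, at 6.25 in replicate 2 and at 5.66 to 5.77 in replicates 1, 3 and 4. Pcdhb8, a clustered protocadherin whose probe may also report its close relatives, lay on the same side of its genotype mean as Gfra3 on 13 of 13 arrays. Cdc23 and the mitochondrial carrier gene Slc25a46 did so on 12 of 13 arrays and A830052D11Rik on 10. Camk4, a calcium-dependent kinase gene on the same chromosome, had the profile nearest to the mirror image of Gfra3 and lay on the other side on 12 of 13. The split was not complete within TH-MYCN+/+ for 2 of these genes. A830052D11Rik stood at 5.92 in replicate 2 and 5.80 in replicate 4, and Slc25a46 at 11.66 in replicate 1 and 11.51 in replicate 4. Among the 5 genes above background on all arrays on each side of Gfra3, Cdc23 had the smallest difference from the Gfra3 profile. Fam53c, next on the far side, had an SD of 0.119 within a genotype, Brd8 one of 0.131 and Gm3561 one of 0.831. Pcdhb8 (-0.56, adjusted p = 0.456) and Cdc23 (0.30, adjusted p = 0.459) were not called between genotypes by limma, while Slc25a46 (-0.81, adjusted p = 0.0192) and Camk4 (-1.12, adjusted p = 0.0396) were called lower. Neither of these calls held with spike-in scaling (adjusted p = 0.469 and 0.228) or as deposited (adjusted p = 0.159 and 0.214), and as deposited Cdc23 was called higher (0.82, adjusted p = 0.0438). A830052D11Rik was not called by limma after quantile normalization (0.71, adjusted p = 0.0544). With each of the 4 other scalings it was called higher, at 1.42 with spike-in scaling (adjusted p = 0.00358). The labels give no strain background, and whether the animals differed in their chromosome 18 sequence was not tested.

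**Figure D2:**
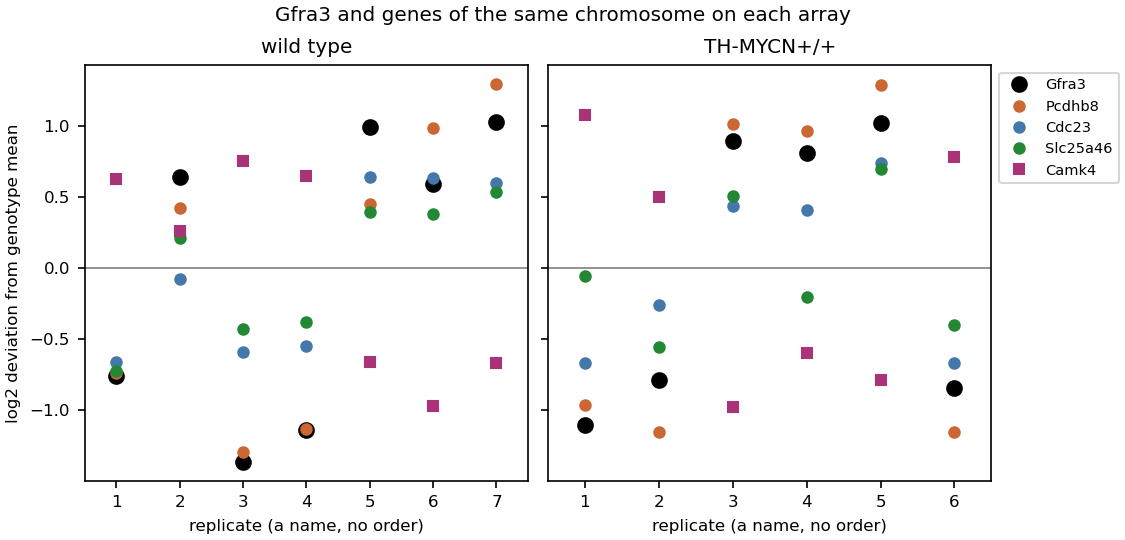
Deviation of the log2 level from the genotype mean on each array, with wild type in the left panel and TH-MYCN+/+ in the right, for Gfra3 and 4 other genes of chromosome 18. Gfra3, Pcdhb8 and Cdc23 are low together in TH-MYCN+/+ replicates 1, 2 and 6 and in wild-type replicates 1, 3 and 4, and Camk4 (squares) is high on these arrays.

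Artn, which encodes the ligand of Gfra3, fell 2.23-fold. Its lowest, median and highest level was 4.14, 4.21 and 4.40 in TH-MYCN+/+ and 5.04, 5.29 and 6.05 in wild type. All 13 arrays were above background, and the genotypes did not overlap. The TH-MYCN+/+ values were dim, at 4.30 to 4.98 as deposited against array backgrounds of 2.88 to 3.99. The log2 fold change was -1.16 ± 0.14 (SE, adjusted p = 1.76e-05). Nrtn, which encodes the ligand of Gfra2, fell 1.92-fold. Nrtn levels were 7.88, 8.19 and 8.59 (lowest, median and highest) in TH-MYCN+/+ and 8.90, 9.21 and 9.31 in wild type, again with no overlap. The log2 fold change was -0.94 ± 0.12 (SE, adjusted p = 1.73e-05). With spike-in scaling neither was called, with log2 fold changes of -0.43 for Artn (adjusted p = 0.236) and -0.36 for Nrtn (adjusted p = 0.288).

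Gdnf was above background on 5 of 7 wild-type arrays and on 0 of 6 TH-MYCN+/+ arrays. Its lowest, median and highest level was 0.67, 0.98 and 1.31 in TH-MYCN+/+ and 0.69, 3.15 and 3.78 in wild type. Wild-type replicate 4, at 0.69, lay within the TH-MYCN+/+ range. Without the 5 arrays on which markers of neighbouring tissue stood apart, Gdnf was not called (adjusted p = 0.0811). Over all arrays the adjusted p was 0.00228, with measured means of 0.96 and 2.86, but no fold is given, because the lowest signal above background averaged 3.27 on the TH-MYCN+/+ arrays and exceeded the wild-type mean. Background levels as deposited were 2.88 to 3.99 on TH-MYCN+/+ arrays and 2.16 to 3.56 on wild-type arrays. Pspn was below background on all 13 arrays, with means of 1.05 (SD 0.29, n = 6) and 1.10 (SD 0.41, n = 7) and an adjusted p of 0.873. Persephin transcript was therefore not detectable in either genotype with this probe.

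The 250 bases upstream of the annotated start are shown for Artn, Nrtn and Gfra1, the 3 members that fell and have a single entry, since MYC proteins bind the E-box CACGTG. Gdnf, called lower on TH-MYCN+/+ values that were all below background, has 2 annotated starts and is described by its matches alone. The sequences are from RefSeq, build GRCm38.p6, on the minus strand for Artn (chr4:117929764-117930013), Nrtn (chr17:56757549-56757798) and Gfra1 (chr19:58455399-58455648). Capitals mark matches on either strand to the GC box GGGCGG.
Artn: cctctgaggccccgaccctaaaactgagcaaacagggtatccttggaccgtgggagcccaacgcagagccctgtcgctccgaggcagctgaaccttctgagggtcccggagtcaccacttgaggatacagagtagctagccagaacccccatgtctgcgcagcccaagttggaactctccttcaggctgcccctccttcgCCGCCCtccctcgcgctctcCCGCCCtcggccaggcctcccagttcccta
Nrtn: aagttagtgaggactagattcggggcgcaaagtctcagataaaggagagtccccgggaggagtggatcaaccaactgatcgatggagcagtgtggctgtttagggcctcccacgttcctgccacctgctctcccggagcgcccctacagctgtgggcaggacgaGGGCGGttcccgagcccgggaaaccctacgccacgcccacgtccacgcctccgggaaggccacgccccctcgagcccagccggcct
Gfra1: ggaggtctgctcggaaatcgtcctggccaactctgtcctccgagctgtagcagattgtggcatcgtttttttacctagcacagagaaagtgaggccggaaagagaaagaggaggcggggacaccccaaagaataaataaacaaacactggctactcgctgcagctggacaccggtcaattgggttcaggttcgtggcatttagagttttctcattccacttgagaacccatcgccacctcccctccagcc
Artn had 2 matches to the GC box, Nrtn 1 and Gfra1 0, and 32.7% of 32851 windows of this length held at least 1. The E-box CACGTG was in none of the 8 windows of the 6 members with an entry (Artn, Gdnf, Gfra1, Gfra4, Nrtn and Pspn), and in 6.02% of all windows. TATAAA, searched on both strands, was in 1 of the Gdnf windows and in 12.4% of all windows. The GC content was 63.6% upstream of Artn, 64.8% upstream of Nrtn and 52.4% upstream of Gfra1. Ret, Gfra2 and Gfra3 were not matched.

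**Figure D3:**
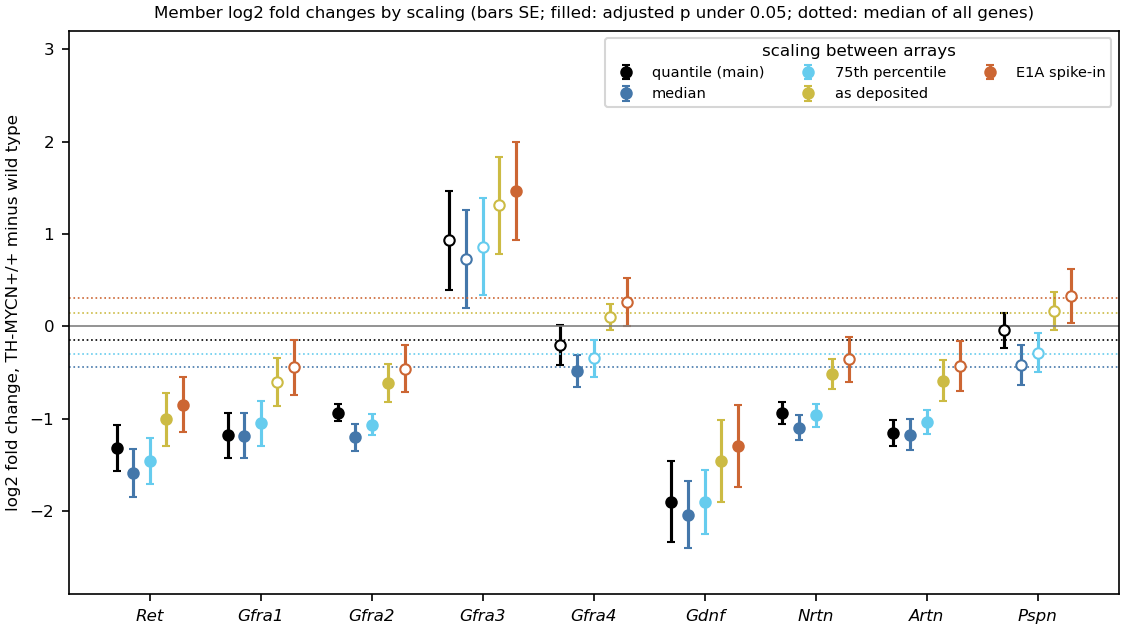
Log2 fold change of each member, TH-MYCN+/+ minus wild type, under 5 scalings between arrays, with SE bars, filled points for an adjusted p under 0.05 and dotted lines at the median of all genes under each scaling. Ret and Gdnf are filled and below 0 under all 5, Gfra3 is above 0 under all 5, and Gfra4 and Pspn change sign. The Gdnf points rest on TH-MYCN+/+ values that were all below background, so their size is not read as a fold.

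Lists of genes around the receptor held lower calls in each case, and the lists were not tested against each other. Of 21 genes of Ret restraint and turnover 10 fell and none rose, with a median log2 fold change of -0.50. Of all genes 34.3% fell and 18.9% rose, with a median of -0.15, the background for each list here. Sh3kbp1, an adaptor in receptor endocytosis, fell by 1.10 ± 0.11 (SE, adjusted p = 3.12e-06), Rap1gap, which switches off the GTPase Rap1, by 1.13 ± 0.12 (adjusted p = 5.39e-06) and Lrig1, a membrane protein that binds Ret and dampens it, had a log2 fold change of -1.49 ± 0.18 (adjusted p = 1.17e-05). Scaled to the spike-in, 1 of these genes was called lower and 3 higher, and Lrig1 was the one lower (-0.88, adjusted p = 0.0346), where 7.21% of all genes were called lower and 25.9% higher. Of 33 measured adaptors and effectors of Ret 16 fell and 8 rose, with a median of -0.25, and with spike-in scaling 1 was called lower and 10 higher. Pik3r1, a regulatory subunit of PI 3-kinase, rose by 2.10 ± 0.17 (SE, adjusted p = 5.93e-07), from a wild-type mean of 10.34 ± 0.23 (SD, n = 7) to 12.44 ± 0.39 (SD, n = 6), and Plcg1, a phospholipase that docks on active receptors, by 0.78 ± 0.10 (adjusted p = 1.95e-05). Stat3, a transcription factor downstream of many receptors, fell by 1.13 ± 0.13 (adjusted p = 1.20e-05). Pik3r1 and Plcg1 were called higher with spike-in scaling too (2.58 and 1.27), while Stat3 was not called (-0.66, adjusted p = 0.0626).

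Of 7 measured genes known to depend on Ret in the mouse ureteric bud, where Ret drives kidney branching, 5 fell and 1 rose after quantile normalization, with a median of -0.94, against the same 34.3% and 18.9% of all genes. With spike-in scaling none of the 7 was called lower and 1 was called higher. The chemokine receptor Cxcr4 fell by 1.21 ± 0.12 (SE, adjusted p = 3.67e-06) and the ETS factor Etv5 by 1.15 ± 0.13 (adjusted p = 7.19e-06), and with spike-in scaling they stood at -0.66 (adjusted p = 0.0613) and -0.67 (adjusted p = 0.0598). Myb, a transcription factor of dividing progenitors, rose by 4.95 ± 0.56 (adjusted p = 9.21e-06), with 6 of 7 wild-type arrays above background. Of 11 measured transcription factors linked to Ret expression or its lineage 6 fell and 3 rose, with a median of -0.50. Under spike-in scaling 3 were called lower and 3 higher. Zeb2, a neural crest factor, fell by 1.56 ± 0.14 (adjusted p = 1.48e-06), Sox10 by 1.58 ± 0.15 (adjusted p = 2.74e-06), and Gata3, a factor of sympathetic differentiation, rose by 1.12 ± 0.12 (adjusted p = 7.13e-06). These 3 were called in the same direction with spike-in scaling (-1.05, -1.09 and 1.59). Of 7 related and alternative receptors, ligand partners and processing enzymes 4 fell and none rose. Gas1, which resembles the GFR alpha coreceptors, fell by 1.03 ± 0.19 (adjusted p = 4.98e-04), Furin, a protease that matures growth factors, by 0.47 ± 0.14 (adjusted p = 0.0101), and Sdc3, a heparan sulfate proteoglycan that binds GDNF, by 0.28 ± 0.08 (adjusted p = 0.00849). Scaled to the spike-in, none of these 7 was called, and Sdc3 (0.18) and Furin (0.08) turned positive.

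**Figure D4:**
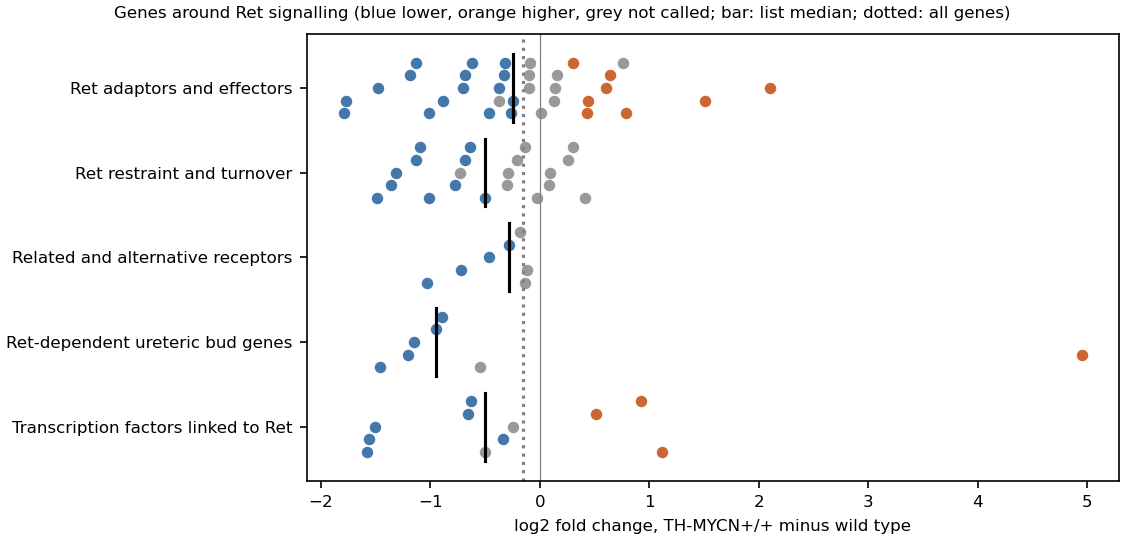
Log2 fold change, TH-MYCN+/+ minus wild type, of each measured gene in 5 lists around Ret signalling, blue where called lower, orange where called higher and grey where not called, with a bar at each list's median and a dotted line at the median of all genes. The restraint list has 10 blue and 0 orange points, and Myb stands apart among the ureteric bud genes at 4.95.

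Markers of other cell types moved with genotype beside the members. The counts here are after quantile normalization, where 34.3% of all genes were called lower and 18.9% higher. With spike-in scaling single marker genes were examined and the lists were not counted. Of 10 Schwann and satellite glia genes 8 fell and 1 rose, and their mean level was 8.34 to 8.89 in TH-MYCN+/+ and 9.50 to 9.80 in wild type. Of 8 smooth muscle and pericyte genes 7 fell (6.70 to 8.02 against 8.07 to 9.17), of 7 fibroblast genes 7 fell (12.05 to 12.80 against 13.82 to 14.18) and of 7 endothelial genes 7 fell (7.03 to 7.62 against 8.10 to 8.55). Of 9 sympathetic neuron genes 8 fell and 1 rose. Acta2, smooth muscle actin, fell by 1.80 ± 0.29 (SE), the sympathetic gene Th by 1.76 ± 0.17 and Dbh, of noradrenaline synthesis, by 1.35 ± 0.14. Beside these the fall was 1.32 for Ret, 1.18 for Gfra1 and 1.16 for Artn. Of 5 markers of cholinergic sympathetic neurons 3 fell, with mean levels of 6.24 to 7.26 against 7.28 to 8.61, and Chat stood at -0.38 (adjusted p = 0.220). Sensory neuron markers split, with 3 of 7 lower, 2 higher and a median of -0.09, and mean levels of 5.87 to 6.28 against 5.73 to 6.44. Among them the sodium channel gene Scn10a fell by 1.66 ± 0.30 (adjusted p = 4.18e-04), while the ion channel genes Trpv1 (2.11 ± 0.36, adjusted p = 2.23e-04) and P2rx3 (1.85 ± 0.18, adjusted p = 2.74e-06) rose, both named after their values were seen. Of 6 adipocyte genes 4 fell, and of 6 macrophage genes 3 fell and 2 rose. The proliferation marker Mki67 rose by 4.48 ± 0.18 (adjusted p = 1.48e-09). Other defining markers were lower in smooth muscle (Myh11, -1.75), fibroblasts (Col1a1, -1.50) and endothelium (Pecam1, -1.16), and Cyp11b1 of the adrenal cortex (-1.36, adjusted p = 0.222) and Acta1 of skeletal muscle (-0.35, adjusted p = 0.805) were not called. Of 8 adrenal genes 1 rose and 0 fell, namely Pnmt (1.55 ± 0.14, adjusted p = 1.35e-06). Of 7 skeletal muscle genes 1 fell and 0 rose, namely Myl1 (-1.25 ± 0.34, adjusted p = 0.00762). Both were named after their values were seen. Of 4 lymphocyte genes 1 fell and 0 rose. With spike-in scaling Pecam1 was not called (-0.47, adjusted p = 0.285). Acta2 (-1.24), Th (-1.09), Dbh (-0.68), Scn10a (-1.08), Myh11 (-1.06) and Col1a1 (-0.97) were called lower there, and Mki67 (5.03) higher. The part of these cell types in the differences of the members was not tested. Leaving out the 5 arrays on which markers of neighbouring tissue stood apart leaves 3 TH-MYCN+/+ and 5 wild-type arrays. There Ret (-1.55), Gfra1 (-1.17), Gfra2 (-0.92), Nrtn (-1.21) and Artn (-1.31) were called lower and Gdnf was not. With TH-MYCN+/+ replicate 2 kept, the other 4 being left out, Gdnf was called lower too (adjusted p = 0.0440).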

How the data were processed

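The deposited table holds 1 value per probe and array, read as log2 intensity, a base inferred from its range of up to 18.63, while the scanner software, background correction and any scaling by the authors are steps not given in the sources used here. Array medians of 3.94 to 5.07 differed, so the 55681 array probes were quantile normalized. Symbols came from the platform annotation, and the probe with the highest mean stood for its gene. Genotypes were compared over all 21893 genes in limma 3.58.1 under R 4.3.3 (1 factor, empirical Bayes, two-sided, Benjamini-Hochberg), a procedure tested on simulated data. Detection used ERCC probes, assuming no ERCC transcripts were added, and spike-in scaling used 7 of 10 E1A probes, assuming equal amounts were added. The mean level of these E1A probes ran from 11.29 to 12.77 over the arrays. With spike-in scaling the SE of Gfra2 was 0.25 against 0.09, that of Nrtn 0.25 against 0.12 and that of Gfra3 0.53 under both. A call lost there does not show that the genotypes were alike. The number of arrays limits the precision, and no saturation flags were used.

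The members, the gene lists (33 of 40, 21 of 21, 7 of 8, 7 of 8 and 11 of 13 genes measured) and the markers were chosen with earlier results of these data known. Named were all members, the 3 smallest p-values of each list, the 3 nearest profiles of each called member above background on all arrays, and defining markers of the cell types, of which 1 is not reported here. Alternatives were the replicate block, 4 other scalings, a background filter, other probe rules, variance settings, array weights, an exact Wilcoxon test, leaving out each array, and, added after seeing the data, leaving out 4 or 5 arrays.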

Additional observations from a re-analysis of the deposited data

Results flagged for a closer look

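Among 18 sets of values (9 members in each genotype), 2 held an array far from the rest of its group, where chance flags about 1 in 20 such sets. Gfra1 in wild-type replicate 7 stood at 3.74, while the other wild-type arrays held 4.65 to 5.17. Pspn in TH-MYCN+/+ replicate 5 stood at 1.64, while the next array held 0.97 and every array was below background.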

How the results depend on the processing

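Ret was called lower under every alternative run, and no called member changed sign. Gdnf lost its call without the 5 arrays with markers of neighbouring tissue (-1.60, adjusted p = 0.0811), an alternative chosen after seeing the data that leaves 3 TH-MYCN+/+ arrays, and kept it under the others in which it was tested. The remaining changes came mostly with scaling. With spike-in scaling 2 members were called lower and 1 higher: Gfra1 (-0.44), Gfra2 (-0.46), Nrtn (-0.36) and Artn (-0.43) lost their call, Gfra3 (1.47) gained one, and Gfra4 (0.26) and Pspn (0.32) turned positive without a call. As deposited, Gfra1 (-0.60) lost its call and Gfra4 (0.10) and Pspn (0.16) turned positive. Gfra4 was called lower after median centring (-0.48) and with the mean of its probes (-0.46). Pspn turned to 0.053 with array weights. It ranged from -0.16 to 0.069 when each array was left out, positive without wild-type replicate 1 (0.042) or 2 (0.069). The Ret log2 fold change then ranged from -1.47 to -1.11. Of all genes, 7516 were called lower and 4136 higher after quantile normalization, 10728 and 3026 after median centring, 8620 and 3866 after centring on the 75th percentile, 2746 and 5521 as deposited, and 1579 and 5675 with spike-in scaling. Under the filter of 6 arrays above background, Gdnf and Pspn were not tested.

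Same-numbered arrays did not deviate together (correlations of -0.13 to 0.05 over 6 pairs, and 0 of 6 TH-MYCN+/+ arrays matched their own number best). With the replicate block 6863 genes were called lower and 3674 higher, Ret stood at -1.31 (adjusted p = 0.00155), and the same 6 members were called. Related and alternative receptors had 1 lower call there, and 1 without the 5 arrays, in place of 4. The low intensities of Gdnf, Gfra1 and Pspn, and of Artn in TH-MYCN+/+, limit what these arrays show of them.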

Other observations

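Other called members had near neighbours in their array profiles as well, given as descriptions over 13 arrays. For Gfra2 these were Stx4a, a syntaxin of vesicle fusion (root mean square difference 0.09, log2 fold change -0.92), Ap3m2, an adaptor subunit of neuronal vesicle traffic (0.09, -0.98), and Nat8l, which makes N-acetylaspartate (0.10, -0.83). For Nrtn they were 4930480E11Rik (0.13, -0.79), the prostaglandin reductase Ptgr2 (0.13, -0.97) and the glutathione transferase Gstm1 (0.14, -1.01). For Artn they were Zfp981 (0.12, -1.18), 6330403K07Rik (0.16, -1.08) and Plec, the cytoskeletal linker plectin (0.16, -0.99). None of these 9 genes was called with spike-in scaling, where their log2 fold changes were -0.52 to -0.10.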
